A study of Mus musculus with 16 samples.

Results

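A stretch of mouse chromosome 2, called here after the gene Cwc22, gave far more ATAC-seq signal in mice of the Brg1 line than in mice of the Aire line, with a median fold of 19.6 over its regions. It was defined as all regions of the deposited table that lie wholly between positions 77707000 and 77866000 of the mm9 build, which holds 167 of the 250313 regions of the table, each 500 bp long. The position of Cwc22 in mm9 was not checked here, so its place in the interval rests on that name. Flanks of 200 kb on each side hold 13 regions on the left and 6 on the right. The interval was chosen by the signal itself, which is far higher there in Brg1-line than in Aire-line libraries, so differences between the lines inside it are given as descriptions without a test. Differences between cell sorts and between genotypes within a line did not choose the interval and were tested. The choice used the wild-type mTEChi libraries, however. Tests with Brg1+/+ or Aire+/+ mTEChi therefore share values with that choice and are not independent of it.

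ATAC-seq uses the transposase Tn5 to insert sequencing adapters into accessible DNA. Here the cells were mTECs, the epithelial cells of the thymic medulla, from C57BL/6 mice aged 4 weeks, with 60000 cells in each reaction. They were sorted as DAPI- CD45- EpCAM+ UEA+ Ly51-low cells, and mTEChi and mTEClo are the fractions with high and with low MHC class II. The 16 libraries form 8 groups of 2: Brg1-/- and Brg1+/+, and Aire-/- and Aire+/+, each as mTEChi and as mTEClo. Brg1 is the ATPase of SWI/SNF chromatin remodelling complexes, and Aire is a nuclear regulator of the tissue-restricted genes that mTECs transcribe. The Brg1+/+ libraries are described as carrying no Cre, the driver of the Cre in Brg1-/- mice is not given in the labels, and the labels do not say how the 2 lines were bred. Nor do they say whether both libraries of a group were made from different animals, and the p-values therefore rest on a spread between samples that may be technical.

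Cwc22 encodes a splicing factor that is known to bind the helicase eIF4A3 and to bring it to the spliceosome, where it becomes the core of the exon junction complex on spliced mRNA. The segment of mouse chromosome 2 that carries Cwc22 is also known for a number of copies that varies widely among wild and inbred mice. ATAC-seq signal at a place grows with the number of DNA copies that map there as well as with their accessibility. DNA content was not measured in these libraries, so copy number and accessibility cannot be told apart in any difference between the lines below.

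The gene table used here is of the GRCm38.p6 build and the regions are in mm9, so regions were not assigned to promoters, exons or introns, and the thymic epithelial and other cell type markers could not be checked. In that table Cwc22 is 65198 bp long, and its nearest protein-coding neighbours are Zfp385b on one side and Gm14461 on the other. The block of regions spans 157365 bp and so is longer than the gene. The 250 bases before the start of Cwc22 are shown because they are the regulatory sequence of the gene after which the block is named. They come from RefSeq, GRCm38.p6, minus strand, chr2:77946357-77946606, written 5′ to 3′, and whether a region of the block holds them was not determined.

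Cwc22 promoter: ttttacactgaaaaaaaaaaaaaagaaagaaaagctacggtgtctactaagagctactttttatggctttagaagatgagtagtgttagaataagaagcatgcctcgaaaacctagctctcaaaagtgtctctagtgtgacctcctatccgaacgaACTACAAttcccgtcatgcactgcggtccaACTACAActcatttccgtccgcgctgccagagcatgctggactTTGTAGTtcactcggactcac

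Capitals mark the letters ACTACAA, which were searched on both strands after the sequence had been read. They occur 3 times, with 2 matches on the strand shown and 1 on the other, and the matches do not overlap. At least 1 match was found in 2.81% of the 32851 promoters of the table over the same 250 bases, and 3 or more in 3 of them. A match is a description of the letters and not evidence of a bound factor.

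Mean signal was higher in the Brg1 line at every one of the 167 regions. Over the 167 regions, the mean signal of the 8 Brg1-line libraries had a median of 124.6 and ran between 31.2 and 545.8. The mean of the 8 Aire-line libraries had a median of 6.47 and ran between 2.20 and 28.3. The fold between these means had a median of 19.6, with quartiles of 15.4 and 23.1, and ran between 7.14 and 37.2. On the log2(signal + 1) scale the difference had a median of 4.09 with an SD over regions of 0.50, and no region fell under 2.68. The lowest Brg1-line library lay above the highest Aire-line library in 158 of the 167 regions, against 0.0803% of all regions tested, which follows from how the interval was chosen. In the other 9 regions the libraries of the lines overlapped.

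In 8 bins of 20 kb, which held between 8 and 27 regions each, the median log2 difference lay between 3.71 and 4.24. The lowest bin was the last one, at the right edge, and the highest was the one before it. The regions with the smallest differences were scattered: 2.68 at 77750711-77751210, 2.81 at 77808079-77808578 and 2.81 at 77847390-77847889. The largest were 5.16 at 77843780-77844279, 5.09 at 77727369-77727868 and 4.99 at 77771727-77772226.

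**Figure D1:**
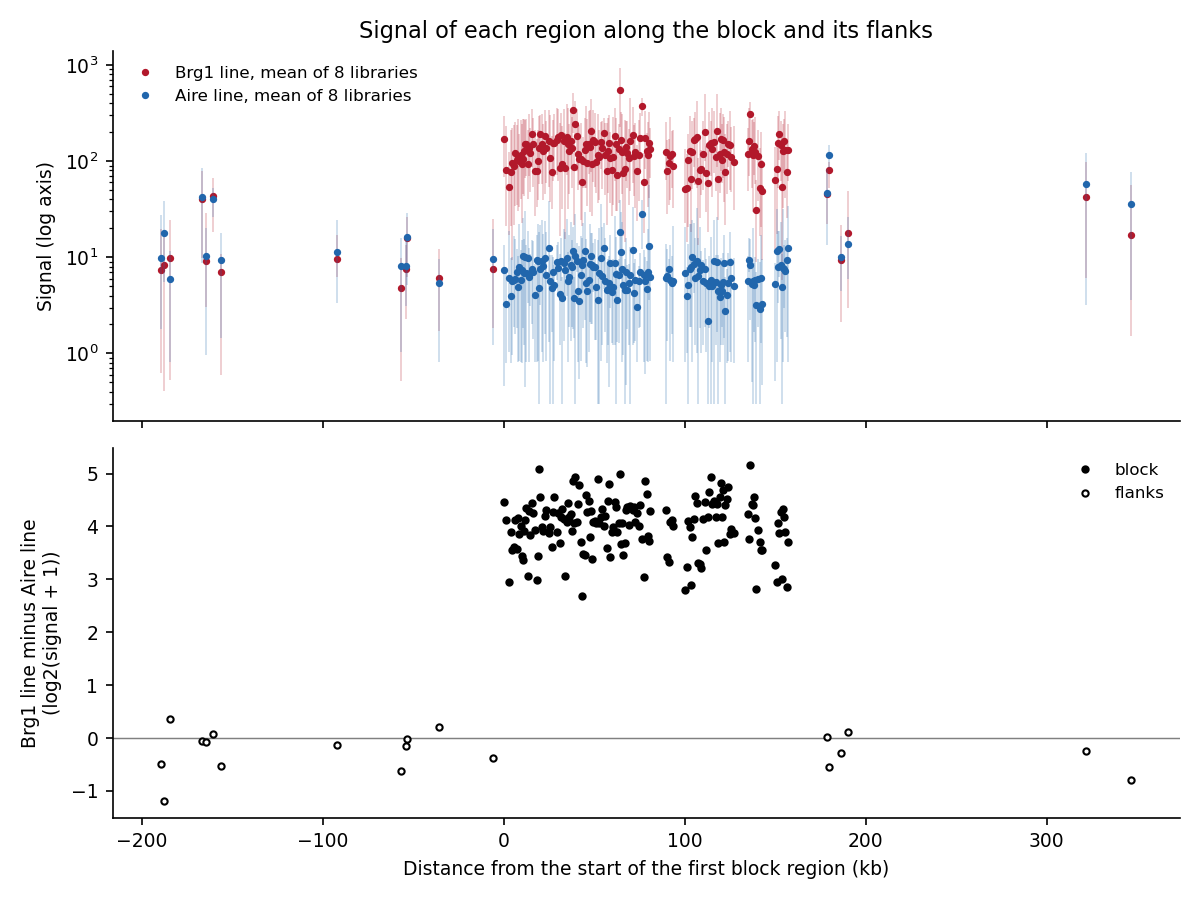
Signal of the 167 block regions and 19 flank regions by distance from the start of the first block region, on a log axis (top; points are means of 8 libraries, lines run from the lowest to the highest library, and listed values of 0 are drawn at 0.3), and the Brg1-line minus Aire-line difference in mean log2(signal + 1) (bottom). All block regions lie at or above 2.68 and all flank regions lie at or below 0.35.

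On the left, the line difference appeared from one region to the next. The last region of the left flank, 77701772-77702271, had signal between 1.86 and 24.8 in the Brg1 line with a median of 4.70, against 1.21 to 19.7 with a median of 7.25 in the Aire line. The first region of the block, 77707854-77708353, starts 5582 bp after the end of that one. Its signal lay between 68.6 and 294.1 in the Brg1 line with a median of 163.0, against 0.45 to 13.6 with a median of 6.20 in the Aire line. The fold of the lines was thus 23.4 at the first block region and 0.79 at its neighbour outside. The third block region, 77710670-77711169, had a smaller fold of 8.92, with 17.1 to 122.9 in the Brg1 line, against 1.03 to 18.6 in the Aire line, so the lines overlapped there.

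On the right no region lies near the edge on its outer side. The last 3 block regions had log2 differences of 3.90 at 77863142-77863641, 2.85 at 77864029-77864528 and 3.71 at 77864719-77865218. The next region of the table, 77886392-77886891, lies 21173 bp further on and had signal between 22.3 and 81.9 in the Brg1 line, against 13.6 to 83.7 in the Aire line, a log2 difference of 0.014. The region after it, 77887314-77887813, had 52.0 to 98.4 in the Brg1 line and 84.6 to 147.7 in the Aire line, a log2 difference of -0.55. The right edge lies somewhere in a gap of 21173 bp that holds no region and the left edge in one of 5582 bp, so how sharply the difference ends cannot be read. The run of consecutive regions with a log2 difference over 1, extended outward from the ends of the block, held the same 167 regions, 77707854 to 77865218. Thresholds of 0.5 and 1.5 gave the same run. No block region fell under 2.68 and no flank region exceeded 0.35, so this outcome was fixed and does not support the edges.

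Neither flank shared the difference. The log2 differences of the 13 regions on the left ran between -1.19 and 0.35 with a median of -0.13, and those of the 6 on the right between -0.80 and 0.12 with a median of -0.26. The median over all regions of the table was -0.25. In the flanks 0 of 19 regions had all Brg1-line libraries above all Aire-line libraries. Only 0.0803% of all regions tested did, so that count says nothing about the flanks.

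Regions were also packed more densely in the block than elsewhere. The 167 regions fill a window of 159 kb, where windows of that length elsewhere in the table held a median of 25 regions and at most 155, on chromosome 1. Neighbouring regions started a median of 749.5 bp apart in the block and 3437 bp apart over the table. The block held 105.0 regions per 100 kb and the flanks 4.75. The series of regions was broken by 4 gaps with spacings over 5 kb, of 8145, 6107, 7047 and 6927 bp, the first of which begins 81.4 kb into the block. The sources used here do not give how the authors chose the regions, so the density describes the table and not a count of separate accessible elements.

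**Figure D2:**
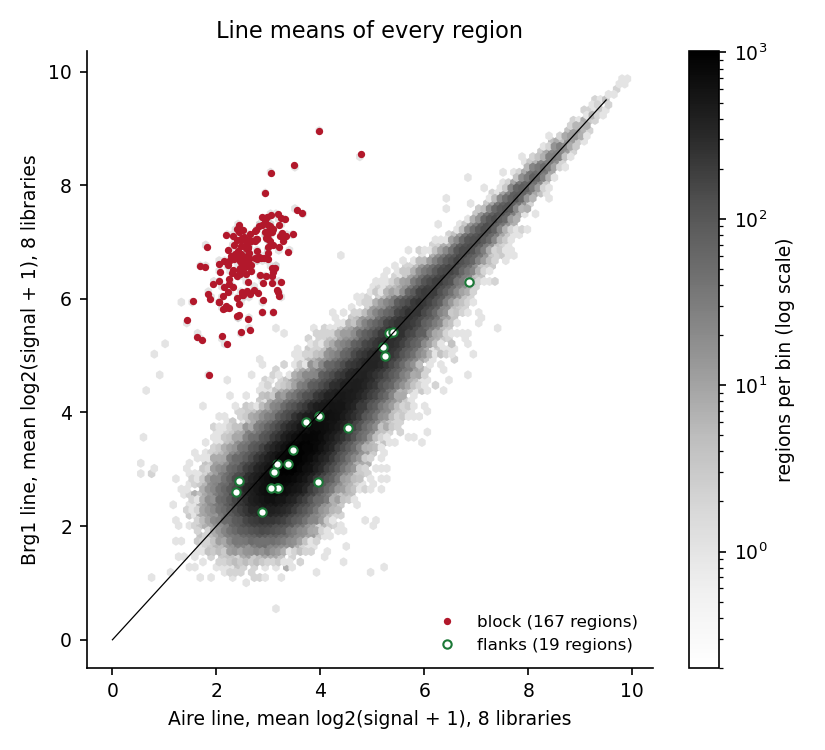
Mean log2(signal + 1) of every region in the 8 Brg1-line libraries (vertical axis) against the 8 Aire-line libraries (horizontal axis), with the number of regions per bin in grey, the 167 block regions in red and the 19 flank regions as open green circles; the line marks equal values. The block lies a median of 4.09 above equality with few grey bins near it, while the flanks lie within the other regions.

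Few regions outside the block had a difference of this size. A log2 difference over 3 was found in 158 block regions and in 7 of the 250146 regions outside. Of these 7, 6 lie on chromosome 17 between 35873122 and 36446285, which is the major histocompatibility complex stretch, and 1 on chromosome 13 at 105532912-105533411, with mean signal of 98.6 in the Brg1 line and 9.44 in the Aire line. The largest difference outside was 4.59, at 36445786-36446285 on chromosome 17, and 16 block regions exceeded it.

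The regions outside whose signal over the 16 libraries was most like the median of the block were ranked by Pearson's r of log2(signal + 1). The first 4 are on chromosome 17. They are 36330341-36330840 with r = 0.94, 35873122-35873621 with r = 0.93, and 36342340-36342839 and 36304541-36305040, each with r = 0.92. The fifth, on chromosome 9 at 110183531-110184030, had r = 0.90, with mean signal of 217.0 in the Brg1 line and 91.2 in the Aire line. The points share the 2 lines, so these correlations mostly restate the split between them. At 36330341-36330840 the lowest Brg1-line library had 15.99 and the highest Aire-line library 3.04, so the lines did not overlap there either, but the mean of the Brg1 line, 36.7, was well under the block's median of 124.6.

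The level of the block differed among the Brg1-line libraries too. Its median signal was 188.7 and 259.2 in the Brg1-/- mTEChi libraries and 88.4 and 166.2 in the Brg1+/+ mTEChi libraries. The Brg1-/- mTEClo libraries had 52.6 and 110.7, and the Brg1+/+ mTEClo libraries 62.5 and 57.5. The highest of the 8 was 4.93 times the lowest, and the sorts overlapped, since the lower Brg1+/+ mTEChi library lay under the higher Brg1-/- mTEClo library. In the Aire line the median was 4.30 and 6.11 in Aire-/- mTEChi, 8.02 and 7.95 in Aire+/+ mTEChi, 5.62 and 5.15 in Aire-/- mTEClo, and 4.56 and 8.45 in Aire+/+ mTEClo. The lowest Brg1-line library was 6.23 times the highest Aire-line library.

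Ranked within each library, the block stood near opposite ends in the lines. Its median lay between the 90.5th and 99.4th percentile of all regions in the Brg1-line libraries and between the 8.41th and 26.0th percentile in the Aire-line libraries. Between 86 and 166 of the 167 regions lay above the 90th percentile of their library in the Brg1 line, against 0 in each Aire-line library. The block stood at 5.70 to 13.1 times the median of all regions of the library in the Brg1 line, and at 0.27 to 0.61 times in the Aire line. The scale of the libraries moved along with the block level inside the Brg1 line. The median of all regions was 15.4 and 19.8 in Brg1-/- mTEChi, 11.8 and 13.3 in Brg1+/+ mTEChi, 9.23 and 10.6 in Brg1-/- mTEClo, and 9.01 and 8.51 in Brg1+/+ mTEClo. Values after re-centring the libraries on a common median are given with the differences between sorts.

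**Figure D3:**
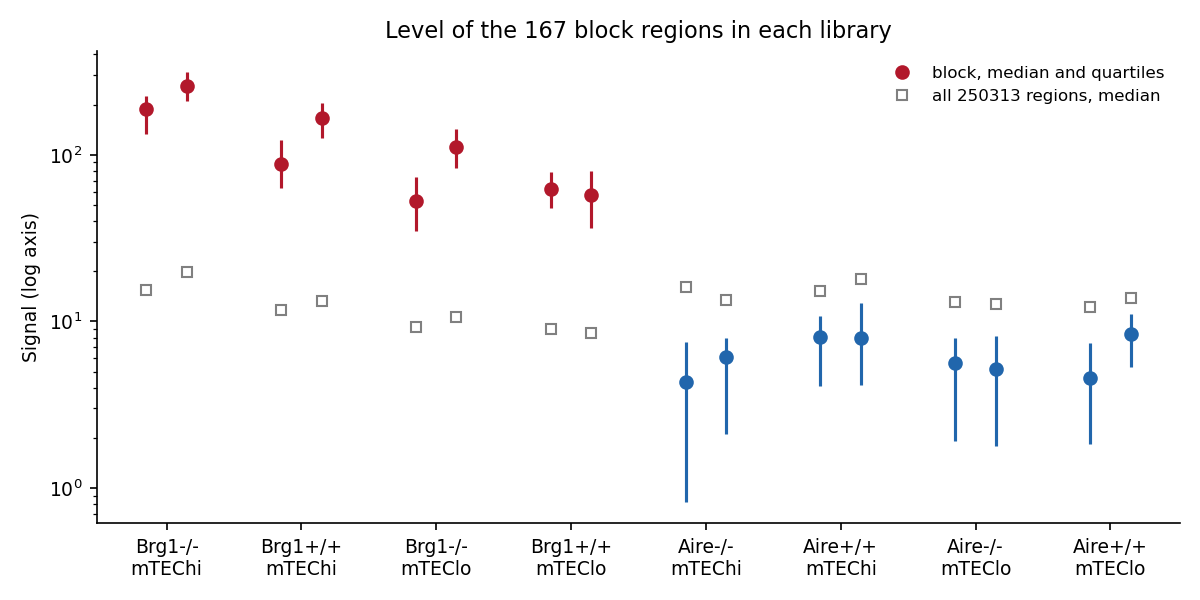
Median and quartiles of signal over the 167 block regions in each of the 16 libraries (filled circles with lines, log axis), with the median of all 250313 regions of the same library as open squares. The block medians of the Brg1 line lie between 52.6 and 259.2, all above the 4.30 to 8.45 of the Aire line, and the block is above the library's own median in the Brg1 line and below it in the Aire line.

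The shape of the profile along the block was shared within the Brg1 line. Over the 167 regions, which are not independent replicates, group means of log2 signal correlated with Pearson r of 0.79 to 0.89 for the 6 pairs of Brg1-line groups. The 6 pairs of Aire-line groups gave 0.075 to 0.22, and pairs of 1 group from each line 0.17 to 0.49. In the Aire line most values were near the bottom of the scale, and 25 of the 2672 block values were listed at 0, all of them in Aire-line libraries. Averaged over 8 libraries each, the lines correlated with r = 0.60.

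The 2 regions with the highest signal in the Brg1 line were also the highest of the block in the Aire line. The highest, 77771727-77772226, had between 224.0 and 939.3 in the Brg1 line with a median of 485.8, against 6.03 to 39.6 with a median of 10.0 in the Aire line. The second, 77783859-77784358, had between 292.2 and 449.5 in the Brg1 line with a median of 365.7, against 12.1 to 39.6 with a median of 32.1 in the Aire line. Their means in the Aire line were 18.2 and 28.3, and the third-highest mean there was 13.1, at 77788262-77788761. The next 3 were 77745912-77746411, 77843780-77844279 and 77747272-77747771, with Brg1-line means of 338.2, 310.4 and 243.5 and Aire-line means of 11.7, 8.34 and 10.3.

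On the deposited scale, the region 77783859-77784358 was the steadiest of the block in the Brg1 line. Its coefficient of variation over the 8 libraries was 14.9%, against a median of 60.7% over the block. It had 378.4 and 436.4 in Brg1-/- mTEChi, 332.7 and 292.2 in Brg1+/+ mTEChi, 343.1 and 449.5 in Brg1-/- mTEClo, and 353.1 and 423.9 in Brg1+/+ mTEClo, so sorts and genotypes overlapped. The next steadiest were 77843780-77844279 with 29.0% and 77745912-77746411 with 29.1%. After re-centring with the Brg1 line alone in the fit, limma called 77783859-77784358 lower in mTEChi of both genotypes, as given below.

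The sorts were then compared within each genotype. Mean log2 signal was above that of mTEClo in mTEChi at nearly all block regions of the Brg1 line, with a positive log2 fold change at 165 of 167 in Brg1-/- and at 163 of 167 in Brg1+/+. Few of these differences passed the test. With limma fitted over all 16 libraries and Benjamini-Hochberg adjustment over 225281 regions, 10 block regions were called higher in mTEChi of Brg1-/- mice, where 6.61% of all regions were called higher. In Brg1+/+ mice 4 block regions were called higher, where 9.21% of all regions were. No block region was called lower in either genotype by that fit. An unadjusted p under 0.05 by limma was found at 104 and 42. The share of all regions at that p is not given here, so these 2 counts support nothing about the block. The share of block regions called was thus no larger than that of the table. Counts with 1 library left out, here and below, lack the share of all regions called in the same setting. They do not show whether a change was particular to the block. Leaving out Brg1-/- mTEChi replicate 1 or 2 or Brg1-/- mTEClo replicate 1 took the calls in Brg1-/- to 0, and leaving out Aire+/+ mTEChi replicate 1 or 2 took them to 26 or 24. The calls in Brg1+/+ were 0 without Brg1+/+ mTEChi replicate 1 or 2 and 1 without either Brg1+/+ mTEClo library. They were 9 without either Aire+/+ mTEChi library and 7 without either Aire-/- mTEClo library. Without either Brg1+/+ mTEClo library the calls in Brg1-/- numbered 6.

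The median log2 fold change of the block was 1.48 in Brg1-/- and 1.00 in Brg1+/+, where the median over all regions was 0.62 and 0.42. Relative to all regions the block was therefore 0.86 and 0.58 higher in mTEChi. The same comparison at the flanks gave medians of 0.19 and 0.096. All 4 mTEChi libraries of the Brg1 line lay above all 4 mTEClo libraries in 46 block regions, or 27.5%, where 18% of all regions tested did.

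These counts depended on the fit. The median within-group SD of log2 signal at block regions was 0.58 in the Brg1 line and 0.85 in the Aire line, where block signal is low. Over all regions it was 0.67 in the Brg1 line and 0.61 in the Aire line. Whether scatter accounts for the change of the counts was not tested. With the 8 Brg1-line libraries alone in the fit, limma called 131 block regions higher in Brg1-/- mTEChi and 69 in Brg1+/+ mTEChi, where 5% and 7.87% of all regions were called higher. After re-centring each library on its own median in that fit, which was tried after the data had been seen, 10 regions were called higher and 1 lower in Brg1-/-, and 13 higher and 1 lower in Brg1+/+. The shares of all regions called higher in that fit were 1.01% and 3.5%, and the shares called lower were 4.94% and 6%. The block region called lower was 77783859-77784358 in both. With all libraries in the fit, re-centring left 0 block regions called by limma in either Brg1 genotype, beside 6 in Brg1-/- and 8 in Brg1+/+ with an unadjusted p under 0.05. The median log2 fold changes of the block were then 0.71 and 0.53.

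The largest of the called differences in Brg1-/- was at 77849942-77850441, with 160.5 and 202.4 in mTEChi, against 20.6 and 53.9 in mTEClo (limma adjusted p = 0.0227, log2 fold change 2.39 with an SE of 0.66). The sorts did not overlap there. At 77859172-77859671 the mTEChi libraries had 240.9 and 293.4, against 53.1 and 106.3 in mTEClo. The other 8 called regions had log2 fold changes between 1.79 and 2.16.

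One region was called in both Brg1 genotypes. At 77769283-77769782 signal was 249.1 and 353.7 in Brg1-/- mTEChi, against 71.8 and 92.4 in Brg1-/- mTEClo (log2 fold change 1.85, SE 0.54, adjusted p = 0.0312 by limma). In Brg1+/+ it was 255.5 and 278.9 in mTEChi, against 62.6 and 79.2 in mTEClo (limma adjusted p = 0.0179, log2 fold change 1.91 with an SE of 0.54). All mTEChi libraries of the line were above all its mTEClo libraries. Its neighbour 77769979-77770478 was called in Brg1+/+, with 193.1 and 222.0 in mTEChi and 60.5 and 30.2 in mTEClo, and had a log2 fold change of 1.23 in Brg1-/- (adjusted p = 0.287 by limma).

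The highest region of the block, 77771727-77772226, lies further along, after 2 other regions. In Brg1+/+ it had 636.4 and 866.2 in mTEChi, against 224.0 and 373.5 in mTEClo (limma adjusted p = 0.0231, log2 fold change 1.36 with an SE of 0.40). In Brg1-/- it had 560.1 and 939.3 in mTEChi and 411.6 and 355.7 in mTEClo, a log2 fold change of 0.92 with an adjusted p of 0.148 by limma. The other call in Brg1+/+ was 77712205-77712704, with 87.3 and 153.4 in mTEChi and 40.9 and 9.48 in mTEClo.

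The 3 steadiest regions had, on the deposited scale, fold changes between sorts near 0 in the Brg1 line, as a small spread over these libraries requires. In Brg1-/- the log2 fold change between mTEChi and mTEClo was 0.049 at 77783859-77784358, -0.062 at 77745912-77746411 and -0.0070 at 77843780-77844279, with SEs of 0.28, 0.50 and 0.48. In Brg1+/+ it was -0.31, 0.11 and 0.083 in the same order. These are the only block regions under 0.1 in Brg1-/-, and all 3 are among the 5 highest of the block. Over the 167 regions the fold change between sorts went down with the mean log2 signal of the Brg1 line, with Pearson r = -0.52 in Brg1-/- and -0.20 in Brg1+/+, values that share libraries with the level.

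**Figure D4:**
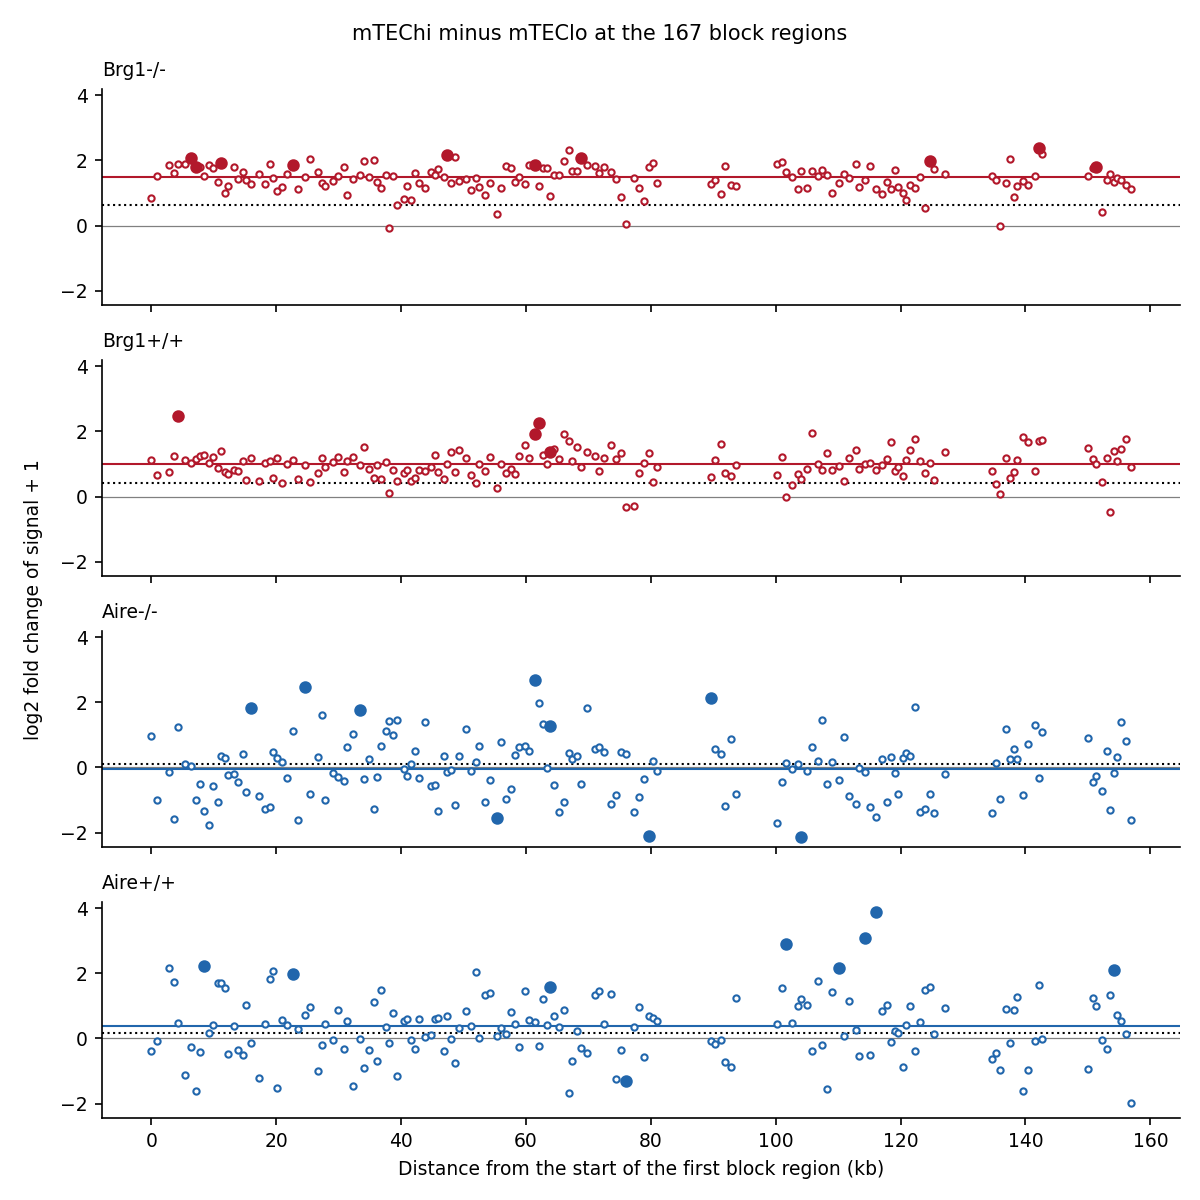
Log2 fold change of signal + 1 between mTEChi and mTEClo at each block region, by distance from the start of the block, for Brg1-/-, Brg1+/+, Aire-/- and Aire+/+ (top to bottom); filled points passed an adjusted p under 0.05 by limma, coloured lines are medians of the block and dotted lines medians of all regions tested. The block medians of 1.48 and 1.00 in the Brg1 line lie above the dotted lines, against -0.038 in Aire-/- and 0.39 in Aire+/+.

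In the Aire line fewer block regions were called between sorts, as a share, than over the table. Limma called 6 block regions higher and 3 lower in mTEChi of Aire-/- mice, where 11.4% of all regions were called in either direction. In Aire+/+ mice it called 8 higher and 1 lower, where 8.79% of all regions were called. Each count is 5.39% of the block. In each genotype 3 of the 9 called regions were among these 105, and the counts support nothing about the block. The median log2 fold change of the block was -0.038 in Aire-/- and 0.39 in Aire+/+, where all regions had 0.096 and 0.16. With the 8 Aire-line libraries alone in the fit, the limma calls were 0 in Aire-/- and 1 in Aire+/+, beside 2 and 6 at an unadjusted p under 0.05, against 12.2% and 9.12% of all regions. The calls in Aire-/- were 4 without Aire-/- mTEChi replicate 1, 2 without Aire-/- mTEClo replicate 2 and 6 without Brg1-/- mTEClo replicate 1 or 2, and other single libraries left between 7 and 13. All 4 mTEChi libraries lay above all 4 mTEClo libraries in 2 block regions, against 14.2% of all regions, and below them in 3, against 10%. The same 105 low regions enter these counts, which support nothing about the block either.

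Of the regions called between sorts in the Brg1 line, 3 were also called in the Aire line. One was 77730576-77731075, called higher in mTEChi of Brg1-/- and of Aire+/+. The others were 77769283-77769782 and 77771727-77772226. The region 77769283-77769782 had 22.1 and 26.6 in Aire-/- mTEChi, against 1.65 and 4.85 in Aire-/- mTEClo (log2 fold change 2.68, SE 0.54, adjusted p = 0.00128 by limma). In Aire+/+ it had 3.64 and 5.13 in mTEChi and 5.45 and 1.22 in mTEClo, so the sorts overlapped. The region 77771727-77772226 had 39.6 and 9.53 in Aire-/- mTEChi, against 6.03 and 9.53 in Aire-/- mTEClo, with an adjusted p of 0.0370 by limma for a log2 fold change of 1.26, although the lower mTEChi library did not exceed the higher mTEClo library. In Aire+/+ it had 27.5 and 33.8 in mTEChi, against 8.84 and 10.5 in mTEClo, with no overlap (adjusted p = 0.0116 by limma for a log2 fold change of 1.57). With the Aire-line libraries alone in the fit the 3 Aire-line calls at 77769283-77769782 and 77771727-77772226 were lost. The limma adjusted p was 0.0983 for 77769283-77769782, and 0.252 in Aire-/- and 0.167 in Aire+/+ for 77771727-77772226.

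Lower signal in mTEChi of Aire-/- mice was called at 3 regions. At 77763150-77763649 it was 4.67 and 9.42 in Aire-/- mTEChi, against 20.1 and 22.8 in Aire-/- mTEClo, at 77787494-77787993 it was 0.82 and 2.22 in mTEChi, against 7.96 and 11.3 in mTEClo, and at 77811933-77812432 it was 0.81 and 2.12 in mTEChi, against 8.31 and 10.7 in mTEClo. The sorts did not overlap at any of them. The Aire-line mean of 77787494-77787993 was under the 7.48 filter, so that region was tested only because of its signal in the Brg1 line. All 3 calls in Aire-/- were lost with the Aire-line libraries alone in the fit. In the right flank, limma called 78029718-78030217 lower in mTEChi in Brg1+/+, Aire-/- and Aire+/+, 78054494-78054993 lower in Brg1+/+ and Aire+/+, and 77898006-77898505 higher in Brg1+/+.

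The steady region 77783859-77784358 was lower in Aire+/+ mTEChi, with 12.1 and 15.4, against 39.3 and 32.1 in Aire+/+ mTEClo (log2 fold change -1.32, SE 0.28, adjusted p = 0.00232 by limma). That SE rests on a spread shared by the libraries of both lines, and the region was picked as steady in the Brg1 line. In Aire-/- it had 39.6 and 33.7 in mTEChi and 32.1 and 22.6 in mTEClo, a log2 fold change of 0.43 with an adjusted p of 0.358 by limma. With the Aire-line libraries alone in the fit the difference in Aire+/+ had an adjusted p of 0.103 by limma.

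Genotype was compared within each sort. Between Brg1-/- and Brg1+/+ mTEChi, the log2 fold change was positive at 164 of 167 block regions and had a median of 0.80, where all regions had 0.22. Limma called 0 block regions at an adjusted p under 0.05, beside 14 at an unadjusted p under 0.05, and 0.0257% of all regions. With the Brg1-line libraries alone in the fit it also called 0, beside 107 at an unadjusted p under 0.05. With re-centring it called 0, beside 0 at an unadjusted p under 0.05, and the median of the block was 0.35. The share of all regions at that unadjusted p is not given here, so the 14 and 107 support nothing about the block. In mTEClo the fold change was positive at 144 of 167 with a median of 0.39, where all regions had 0.048. Limma called 0 block regions there, with 0 at an unadjusted p under 0.05, and 0.000444% of all regions.

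The block medians of the 2 Brg1-/- mTEChi libraries, 188.7 and 259.2, lay above the 88.4 and 166.2 of the Brg1+/+ mTEChi libraries, while in mTEClo the genotypes overlapped. Over both sorts, all 4 Brg1-/- libraries lay above all 4 Brg1+/+ libraries in 2 block regions, or 1.20%, against 1.9% of all regions. One of these was 77843780-77844279, with 356.0 and 409.6 in Brg1-/- mTEChi, against 205.0 and 275.8 in Brg1+/+ mTEChi, and with 360.3 and 408.7 in Brg1-/- mTEClo, against 167.6 and 300.5 in Brg1+/+ mTEClo. Its log2 fold change was 0.68 in mTEChi (adjusted p = 0.640 by limma) and 0.77 in mTEClo (adjusted p = 0.870 by limma). The test of a difference between sorts in the Brg1 effect called 0 block regions and 0% of all regions by limma, with 0 block regions at an unadjusted p under 0.05.

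Aire-/- libraries were compared with Aire+/+ libraries in the same way. Over both sorts, all 4 Aire+/+ libraries lay above all 4 Aire-/- libraries in 8 block regions, or 4.79%, against 1.1% of all regions. The reverse held in 1, or 0.60%, against 0.93%. Since 105 of the 167 were tested only because of their signal in the Brg1 line, these counts support nothing about the block. In mTEChi the median log2 fold change of the block was -0.61, where all regions had -0.0015, and it was positive at 49 of 167. Limma called 1 block region, lower in Aire-/-, against 0.0209% of all regions called in either direction. It lies at 77861976-77862475, with 0.81 and 2.12 in Aire-/- mTEChi, against 31.8 and 14.7 in Aire+/+ mTEChi (log2 fold change -3.25, SE 0.60, adjusted p = 0.0475 by limma). In mTEClo the same region had 1.90 and 1.496 in Aire-/- and 4.56 and 4.11 in Aire+/+. The genotypes did not overlap in mTEChi, and the call was lost with the Aire-line libraries alone in the fit, where limma called 0 block regions, beside 10 at an unadjusted p under 0.05. Leaving out Aire+/+ mTEChi replicate 1 took the number of calls to 13. It stayed at 1 without Aire+/+ mTEChi replicate 2 or either Brg1+/+ mTEChi library, and was 0 without each of the other libraries.

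In Aire-/- mTEClo the block had a median log2 fold change of -0.19, where all regions had 0.00045, and a positive one at 68 of 167 regions. Limma called 0 block regions and 0% of all regions, beside 27 block regions with an unadjusted p under 0.05. The share of all regions at that unadjusted p is not given here, so the 27 support nothing about the block. Of the 167, 105 had an Aire-line mean under the 7.48 filter and were tested only because of their signal in the Brg1 line. The Aire effect differed between sorts at 1 block region, 77823875-77824374, which was also the only one called in the table (0.000444% of all regions). It had 4.30 and 2.12 in Aire-/- mTEChi, against 18.1 and 24.5 in Aire+/+ mTEChi, and 8.31 and 13.9 in Aire-/- mTEClo, against 1.21 and a listed 0 in Aire+/+ mTEClo. The genotypes stood in opposite order in the sorts, and the difference of the log2 fold changes was -5.43 with an SE of 0.78 (adjusted p = 0.0150 by limma). With the Aire-line libraries alone in the fit this call was lost. It was 2 calls without Aire+/+ mTEChi replicate 1, 1 without either Brg1+/+ mTEChi library, Aire-/- mTEChi replicate 1, Aire-/- mTEClo replicate 1 or Aire+/+ mTEClo replicate 1, and 0 without each of the other libraries. In the Brg1 line the same region had 226.2 and 331.0 in Brg1-/- mTEChi and 95.2 and 205.5 in Brg1+/+ mTEChi.

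**Figure D5:**
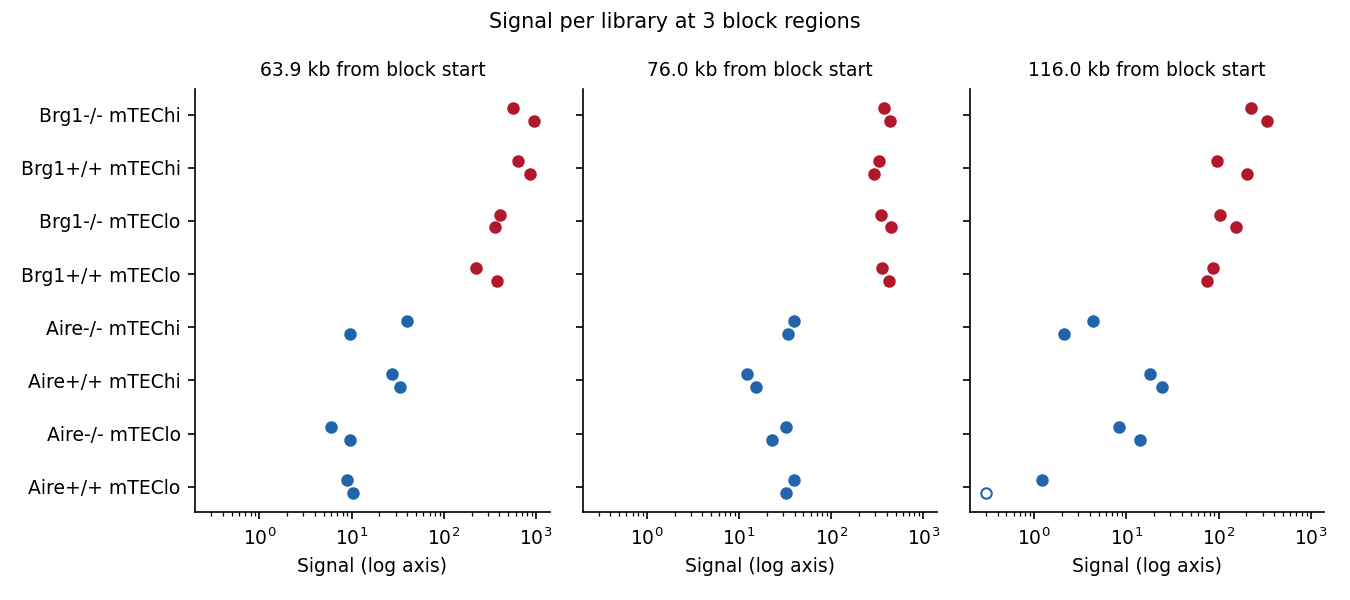
Signal in each of the 16 libraries (log axis) at the 2 highest regions of the block, 63.9 and 76.0 kb from its start, and at the region where the Aire effect differed between sorts, 116.0 kb from its start; each point is a library, Brg1 line in red and Aire line in blue, and a listed 0 is drawn open at 0.3. At 76.0 kb the Brg1-line libraries sit between 292.2 and 449.5 on the deposited scale, and the sorts overlap. At 63.9 kb their mTEChi libraries, 560.1 to 939.3, sit above their mTEClo libraries, 224.0 to 411.6.

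Between the lines, the block difference was present in each sort and genotype. The median over block regions of the log2 difference was 5.18 for Brg1-/- against Aire-/- in mTEChi and 3.77 in mTEClo. For Brg1+/+ against Aire+/+ it was 3.86 in mTEChi and 3.25 in mTEClo. At the 17 flank regions that passed the filter on low signal the same medians were -0.054, -0.71, 0.077 and -0.48. All 167 block regions passed that filter, but 105 of them had an Aire-line mean under its threshold of 7.48, so they entered the tests through their signal in the Brg1 line.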

How the data were processed

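The authors deposited 1 table of normalized signal for 250313 regions in 16 libraries. The submitters' processing notes name Bowtie2, MACS2 and mm9 without versions, and the definition of regions, the Tn5 shift, duplicate removal and scaling are not given. Signal in the deposited table is not whole, so depth is unknown and no count model or counting interval was used. Starts were read as counted from 0 and are printed counted from 1.

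Libraries were grouped by the labels. Tests used log2(signal + 1), which understates fold changes of low regions, on the 225281 regions whose mean reached the 10th percentile (7.48). A model with a mean per group was fitted across all libraries with limma 3.58.1 (R 4.3.3; trend and robust; 8 residual degrees of freedom). Benjamini-Hochberg adjustment ran over all regions for each of 11 contrasts, two-sided, with calls at 0.05. Counts of block regions at an unadjusted p under 0.05 are given without their share over all regions, so they support nothing about the block. The contrast of sort effects between the 2 knockouts crosses the lines by which the interval was chosen and is not reported. The procedure was tested on simulated data in which all libraries shared 1 mean and 1 spread per region, apart from changes added in 1 group. That test does not cover the block, where level and spread differ between the lines. Alternatives were other pseudocounts and filters, quantile normalization, re-centring, a replicate block, quality weights, 1 line alone in the fit, and leaving out each library.

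Named regions were the 3 on each side of each edge, the 5 highest, the 3 largest and 3 smallest line differences, up to 10 calls per contrast, and the 5 most alike elsewhere, of which the text gives most. Steady regions were picked after their values were seen. The interval, contrasts and rule were chosen with earlier results of these data known. Lists of splicing genes and cell type markers were not used, since the gene table is of another build.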

Additional observations from a re-analysis of the deposited data

Results flagged for a closer look

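At 77823875-77824374 on chromosome 2, limma's test of whether the Aire effect differs between the sorts passed its threshold with all 16 libraries in the fit (adjusted p = 0.0150), and missed it in 14 of 26 other settings, among them the fit of the Aire line alone (adjusted p = 0.870). The log2 difference of the fold changes was -5.427, with 4.30 and 2.12 in Aire-/- mTEChi against 18.1 and 24.5 in Aire+/+ mTEChi, and 8.31 and 13.9 in Aire-/- mTEClo against 1.21 and a listed 0 in Aire+/+ mTEClo.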

How the results depend on the processing

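Over 34 called results at single regions and 26 other settings each, 0 changed direction. Other filters, fits of 1 line and leaving out libraries of other groups do not alter a fold change, so many settings could not reverse one. Of the 34, 33 fell short of the threshold in at least 1 setting. The other, the sort difference of Aire+/+ at 77823875-77824374, was called in every one. The causes were not tested. The counts below are of block regions, and the share of all regions called in the same setting is not given beside them. They therefore do not show whether a change was particular to the block. The same goes for all counts with 1 library left out. Calls between sorts in Brg1-/- (10 as reported) numbered 5 with a pseudocount of 0.5, 65 with 5, 18 with the filter at the 50th percentile, 0 with quantile normalization or re-centring, 1 with quality weights and 131 with only that line in the fit. In Brg1+/+ (4) they were 17 with a pseudocount of 5, 9 with the 50th percentile, 0 with re-centring, 69 with only that line and 14 with that line re-centred. In Aire-/- (9) they were 4 with a pseudocount of 5, 19 with quality weights and 0 with only that line, re-centred or not. In Aire+/+ (9) they were 1 with only that line and 2 with that line re-centred. The 1 call of the Aire genotype in mTEChi became 0 with a pseudocount of 5, no filter, quantile normalization, re-centring, quality weights or only that line, re-centred or not, and the 0 calls in mTEClo became 2 with quality weights. The 1 call where the Aire effect differed between sorts became 0 with a pseudocount of 5, quantile normalization or only that line, re-centred or not. With a pseudocount of 5 the median line difference was 4.44 between knockout mTEChi, against 5.18, and 2.53 between wild-type mTEClo, against 3.25.

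Leaving out 1 library at a time gave 0 to 26 calls between sorts in Brg1-/-, 0 to 9 in Brg1+/+, 2 to 13 in Aire-/- and 7 to 11 in Aire+/+. It gave 0 to 13 for the Aire genotype in mTEChi, 0 to 1 in mTEClo, 0 to 2 for its difference between sorts, and 0 for both Brg1 genotype contrasts and their difference. Line differences ran between 2.69 and 3.45 in wild-type mTEClo, 3.41 and 4.31 in wild-type mTEChi, 4.96 and 5.48 in knockout mTEChi, and 3.25 and 4.28 in knockout mTEClo. Where a group kept 1 library, that library was assumed to vary like the others. The replicate numbers gave no sign of pairing, since deviations of same-numbered libraries correlated between -0.018 and 0.034, and the replicate block gave 17 calls between sorts in Brg1-/-, 5 in Brg1+/+ and 10 in each Aire genotype. Depth is unknown, so no limit from counting can be given.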
